A study of Mus musculus with 18 samples.

Results

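Expression of 10 genes of the insulin-like growth factor (IGF) axis and the H19-Igf2 locus was examined in 18 RNA-Seq libraries of mouse colonic epithelium. The genes were taken by name, Igf1, Igf2, H19, Igf1r, Igf2r, Igfbp3, Igfbp4, Igfbp5, Igfbp7 and Igf2bp3, and all 10 were found among the 55453 gene names counted. Every library came from female Swiss Webster mice treated with azoxymethane (AOM), a colon carcinogen, at 7 weeks of age and from 9 weeks with 4 cycles of DSS (dextran sulfate sodium, a chemical that damages the epithelium of the colon), each of 7 days of 2% DSS and 14 days of plain water. The mice ate chow with 2 mg/kg folic acid (FA) at first, and from 11 weeks of age chow with 0 or 8 mg/kg FA for 16 weeks, until 27 weeks of age. Polypoid dysplasia (P) and epithelium free of dysplasia (ND) were cut by laser microdissection (LMD) from formalin-fixed, paraffin-embedded colon, and 40 ng of total RNA entered each library. The 4 groups were FA 0 mg/kg non-dysplastic (0ND, n = 4), FA 8 mg/kg non-dysplastic (8ND, n = 5), FA 0 mg/kg polypoid (0P, n = 4) and FA 8 mg/kg polypoid (8P, n = 5). No group was free of AOM and DSS. The labels name no animal, so it is not given whether ND and P libraries shared mice, and p-values measure the spread between these libraries.

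Igf1 and Igf2 are small secreted ligands that bind the receptor tyrosine kinase Igf1r and, through insulin receptor substrates, PI3K and Akt, promote growth and survival. Igf2r carries no kinase and removes Igf2 from the cell surface for degradation, while the secreted Igfbp proteins hold the ligands and release them when proteases cut them. Igf2 and the noncoding RNA H19 lie side by side in an imprinted cluster, with Igf2 read from the paternal and H19 from the maternal chromosome under the control of a methylated insulator between them. In the gut, Igf1 is made mainly by mesenchymal cells and macrophages.

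On mm10, H19 is annotated on chromosome 7 from 142575529 to 142578143 and Igf2 from 142650766 to 142666816, both on the minus strand, with 72622 bp between them. An exon of H19 holds the hairpin of miR-675 (chr7:142577064-142577147), and Igf2 holds that of miR-483. The mature sequences of miR-675 are shown because they are the short products that H19 is cut into, from RefSeq on GRCm38.p6, 5′ to 3′, with the seed (bases 2 to 8) in capitals.
mmu-miR-675-5p: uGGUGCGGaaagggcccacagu
mmu-miR-675-3p: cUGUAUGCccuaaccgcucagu
The arms share no seed. Mir675 and Mir483 had 0 counts in all 18 libraries. Reads on the 84 bp that Mir675 shares with H19 can be counted for neither gene, so the H19 counts below may cover mainly the other 2376 bp of its exons, and the zeros say nothing of the mature miRNAs.

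DNA methylation at CCCGGG sites was also assayed in this tissue, with values not used here. RefSeq promoter windows of 250 bases before the start were matched to 9 of the 10 genes, all but H19. Igfbp4 and Igfbp5 are shown because, of the binding proteins among the 10 genes, they differed most between groups. Igfbp4 held 2 CCCGGG sites, given in capitals, and 22 CpG. Igfbp5 held 0 such sites and 10 CpG in the 231 bases that lie outside its annotated gene.
Igfbp4 (GRCm38.p6, chr11:99040994-99041243, plus strand): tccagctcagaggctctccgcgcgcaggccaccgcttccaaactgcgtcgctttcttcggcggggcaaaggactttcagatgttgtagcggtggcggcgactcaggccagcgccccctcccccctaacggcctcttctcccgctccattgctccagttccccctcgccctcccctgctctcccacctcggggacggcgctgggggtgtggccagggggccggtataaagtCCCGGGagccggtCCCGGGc
Igfbp5 (GRCm38.p6, chr1:72874885-72875115, minus strand): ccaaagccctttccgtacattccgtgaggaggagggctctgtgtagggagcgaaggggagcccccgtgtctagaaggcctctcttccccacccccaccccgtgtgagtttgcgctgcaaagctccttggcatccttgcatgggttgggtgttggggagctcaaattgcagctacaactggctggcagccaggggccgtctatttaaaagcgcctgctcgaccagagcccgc
CCCGGG, which reads the same on both strands, occurred in 11.2% of 32851 such windows, and the median window held 6 CpG. Among the other genes, Igfbp7 held 2 sites, Igf2r and Igfbp3 held 1 each, and Igf1, Igf1r and Igf2bp3 held 0. A match describes the letters of the window and not its methylation.

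Depth was 3500947 to 17048524 counts on genes per library. All 12 colon epithelium markers (such as Epcam and Krt8) were counted in every library, at a summed 3278 to 5913 CPM (read counts scaled to the same fixed total in every library). All 14 fibroblast and matrix markers were too, at 1491 to 3649 CPM, so transcripts of cells other than epithelium were present in every library. Levels below are CPM scaled by TMM, a factor per library that sets the bulk of genes equal, and tests are edgeR quasi-likelihood tests on the counts with p-values adjusted by Benjamini-Hochberg over 20787 genes and a threshold of 0.05. Fold changes are log2 values with a standard error (SE).

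Per kilobase of annotated exon, Igfbp5 had the highest mean level over the 18 libraries at 134 CPM per kb, followed by Igfbp7 (87.3) and Igfbp4 (77.7). Igf1 (15.1), Igf2r (15.1) and Igfbp3 (12.6) formed a middle tier, Igf1r (4.90) and H19 (3.05) a lower one, and Igf2bp3 (0.106) and Igf2 (0.0537) were near the limit of counting. The value of Igf2 is over all its exon bases. Over the 2127 bp that it shares with no gene on its strand, which may be the only ones counted, it would be 0.145, above Igf2bp3, so the order of these last genes is not settled. Neighbours within each tier overlapped in their ranges over libraries. Igfbp4, Igfbp5 and Igfbp7 stood above both ligands, and the order of Igfbp5 and Igfbp7 differed between groups. In 0ND, Igfbp7 averaged 70.9 and Igfbp5 46.8 CPM per kb, while in 8P Igfbp5 averaged 201 and Igfbp7 86.7.

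**Figure D1:**
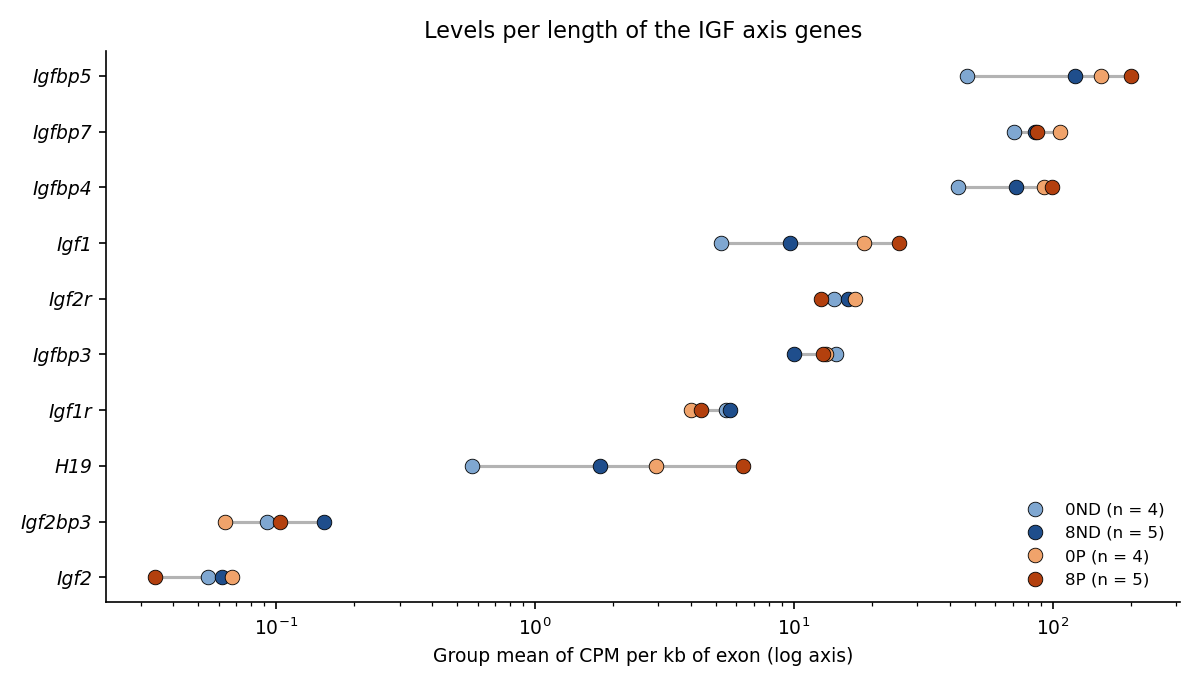
Group mean level per kb of exon (log axis) of each gene, 1 point per group, ordered by the mean over all libraries. Igf1, Igfbp5, Igfbp4 and H19 spread from 0ND at the left towards 8P at the right, while Igf2r, Igfbp3 and Igf1r lie close together and Igf2 and Igf2bp3 sit far below.

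The comparison of dysplasia with non-dysplastic epithelium on FA-free chow (0P vs 0ND) held most of the differences. Igf1, Igfbp4, Igfbp5, Igfbp7 and H19 rose and Igf1r fell, 6 of the 9 genes tested, against 31.6% of all tested genes, and 4 of them changed at least 2-fold, against 15.9%. On FA 8 mg/kg (8P vs 8ND) Igf1 rose and no other of the 9 passed, against 28.2% of all genes. These comparisons share no library, but each shares a group with the dose comparisons below. The median log2 fold change of the 9 genes was 0.59 in 0P vs 0ND and 0.37 in 8P vs 8ND, beside −0.034 and 0.0020 over all tested genes. In bulk samples such as these, a change in the number of cells that make a transcript and a change in RNA per cell cannot be told apart.

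Igf1 measured 59.3, 35.6, 80.3 and 31.5 CPM in the 0ND libraries and 122, 114, 63.8, 74.2 and 103 CPM in 8ND. It measured 185, 128, 201 and 226 CPM in 0P and 247, 237, 179, 144 and 460 CPM in 8P. Every P library lay above every ND library, and 8P 5 was the highest. Igf1 rose in 0P by 1.84 ± 0.36 (log2 fold change ± SE, adjusted p = 8.2e-04, edgeR) and in 8P by 1.40 ± 0.31 over 8ND (adjusted p = 0.0030), or 3.57-fold and 2.64-fold. The call held in all 8 and all 10 fits that left out 1 library, and without 8P 5 the second value was 1.07 (adjusted p = 0.0072). Igf1os, annotated on the opposite strand across the start of Igf1, had 0 counts in every 0ND library and 17, 34 and 74 in all in 8ND, 0P and 8P. These groups differ in depth and number of libraries, and the means were 0.346 CPM in 8ND, 0.705 in 0P and 1.21 in 8P. In edgeR, Igf1os passed in 0P vs 0ND (adjusted p = 7.9e-04) and 8P vs 8ND (0.029). It did not pass in 8ND vs 0ND (0.13) or 8P vs 0P (0.60). The strand setting of the counting is not given, but the pair shares no annotated exon base. Igf1os totalled 125 counts beside 30416 of Igf1.

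Igfbp5, the binding protein most abundant here, measured 332, 296, 343 and 152 CPM in 0ND and 772, 873, 473, 781 and 769 CPM in 8ND. It measured 792, 1110.3, 870.0 and 909 CPM in 0P and 555, 1707, 719, 585 and 2462 CPM in 8P. All 0ND libraries lay below all others, and 8P fell into 2 libraries well above the remaining 3. Igfbp5 rose in 0P over 0ND by 1.71 ± 0.42 (adjusted p = 0.0050, edgeR). In 8P vs 8ND the value was 0.72 ± 0.37 (adjusted p = 0.16), and 0.28 without 8P 5.

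Igfbp4, which is cut by the protease Pappa to free its ligand, measured 199.97, 203, 231 and 124 CPM in 0ND and 335, 313, 332, 299 and 317 CPM in 8ND. It measured 346, 394, 344 and 552 CPM in 0P and 340.0, 612, 302, 299 and 636 CPM in 8P. Again each 0ND library was below all others, and 8P 2 and 8P 5 were the highest of all. Igfbp4 rose in 0P by 1.11 ± 0.25 (adjusted p = 0.0020, edgeR), and in 8P vs 8ND the difference was 0.46 ± 0.22 (adjusted p = 0.13).

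Igfbp7, a related matrix protein that binds IGF weakly, measured 91.4, 96.6, 72.2 and 82.4 CPM in 0ND and 145, 91.7, 132 and 147 CPM in 0P. One 0P library, 0P 2, lay within the 0ND range. The rise in 0P was 0.59 ± 0.22 (adjusted p = 0.0455, edgeR), and in 8P vs 8ND the difference was 0.015 ± 0.19 (adjusted p = 0.97), with 66.4 to 165 CPM in 8P and 85.2 to 124 CPM in 8ND. Igfbp3, the main carrier of IGF in blood, did not pass in either comparison. Its levels were 32.2 to 55.7 CPM in 0ND, 31.6 to 54.2 in 0P, 23.5 to 39.8 in 8ND and 35.1 to 48.8 in 8P, with differences of −0.12 ± 0.18 (adjusted p = 0.67) in 0P and 0.37 ± 0.16 (adjusted p = 0.10) in 8P.

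Of the receptors, Igf1r measured 93.7, 99.5, 84.9 and 90.3 CPM in 0ND and 80.8, 63.9, 57.6 and 67.3 CPM in 0P. The groups did not overlap, as was the case for 5 of the 9 genes in this comparison against 32.3% of all tested genes. Igf1r fell by 0.45 on the log2 scale in 0P (SE 0.17, adjusted p = 0.046, edgeR). In 8P it ranged from 49.8 to 100.4 CPM and in 8ND from 82.8 to 109 CPM, a difference of −0.36 ± 0.15 (adjusted p = 0.075) that passed without 8P 5, the highest of the 8P libraries (−0.50, adjusted p = 0.012). Igf2r, the scavenger receptor, stayed within overlapping ranges of 106 to 147 CPM in 0ND, 130 to 211 in 0P, 113 to 202 in 8ND and 81.6 to 139 in 8P, and passed in neither comparison (0.27 ± 0.19, adjusted p = 0.31, and −0.35 ± 0.17, adjusted p = 0.14). Its antisense partner Airn, the noncoding RNA that silences the paternal Igf2r copy in cis, had 176 to 597 counts per library and shares no exon base with it.

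**Figure D2:**
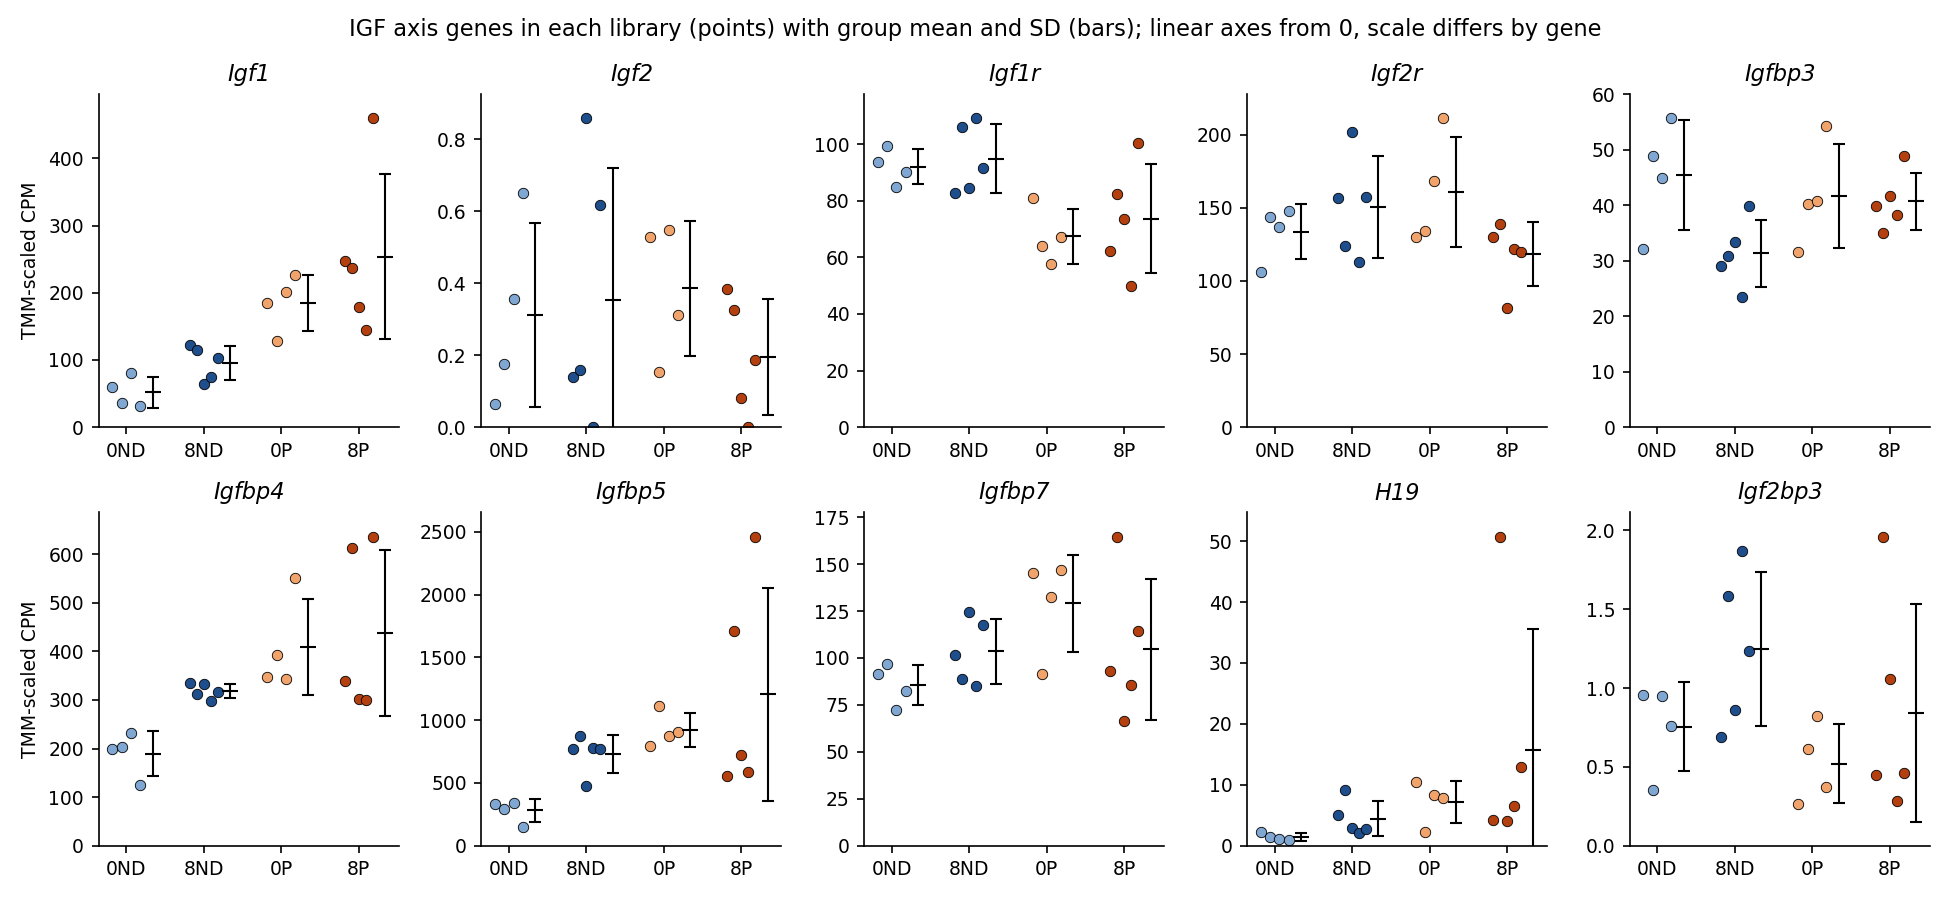
TMM-scaled CPM of each gene in every library, 1 point per library, with the group mean and SD at the right of each group (SD bars are cut at 0). The P libraries of Igf1 lie above all ND libraries, 0ND lies below the other groups for Igfbp4 and Igfbp5, and among the 8P libraries 8P 5 is the highest for Igf1, 8P 2 and 8P 5 are the highest for Igfbp5, and 8P 2 stands apart for H19.

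H19 was low in all groups, with 8 to 466 counts per library. It measured 2.29, 1.41, 1.07 and 0.866 CPM in 0ND and 5.12, 9.11, 2.90, 2.14 and 2.77 CPM in 8ND. In 0P it measured 10.4, 2.31, 8.37 and 7.84 CPM, and in 8P 4.28, 50.7, 3.98, 6.54 and 12.9 CPM. The lowest 0P library only just cleared the highest 0ND library, and 8P 2 held more H19 than all other 8P libraries together. H19 rose in 0P over 0ND by 2.29 ± 0.83 (adjusted p = 0.045, edgeR), and in 8P vs 8ND the difference was 1.76 ± 0.67 (adjusted p = 0.061), or 0.60 (adjusted p = 0.37) without 8P 2. That second difference passed without 8ND 2 (2.24, adjusted p = 0.034), without 8P 1 (2.01, adjusted p = 0.036) and without 8P 3 (2.01, adjusted p = 0.033). The exon bases of H19 overlap the small RNA gene models Gm27483 and Gm27786 on the opposite strand, which had 1 count each in all.

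The 3 calls of 0P vs 0ND with an adjusted p near 0.05 depended on the full set of libraries. H19 and Igfbp7 each kept the call only without 0P 2 (adjusted p = 0.030 and 0.019) and reached 0.11 (without 0ND 4) and 0.12 (without 0ND 3) among the 7 other fits that left out 1 library. Igf1r kept it only without 0P 1 (adjusted p = 0.024) and reached 0.15 without 0P 3. Their direction was the same in all 8 such fits. Across the other tools, scalings and designs, the adjusted p of H19 ran from 0.0041 (only the 2 groups fitted) to 0.15 (limma-voom) and passed in 4 of 7. That of Igfbp7 ran from 0.015 (only the 2 groups) to 0.088 (no filter on low counts) and passed in 4 of 7, and that of Igf1r ran from 0.015 (only the 2 groups) to 0.13 (scaled by library totals) and passed in 2 of 7. With the replicate number as a block, Igfbp7 (adjusted p = 0.084) and Igf1r (0.056) did not pass and H19 did (0.0042). Igf1, Igfbp4 and Igfbp5 passed in all 8.

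Igf2 could not be read from these tables. It had 1, 1, 3 and 6 counts in 0ND, 1, 2, 8, 0 and 6 in 8ND, 6, 2, 4 and 5 in 0P and 6, 3, 1, 0 and 2 in 8P, too few to enter the test. The count of 0 in 8ND 4, the shallowest library, allows up to 0.797 CPM, and that in 8P 4 up to 0.211 CPM. Of the 5723 exon bases of Igf2, 3596 (62.8%) are shared on the same strand with Gm49394, a protein-coding gene model that spans the locus and had 0 to 1 counts per library. HTSeq in its default mode gives reads on bases of 2 genes to neither, and the mode used is not stated, so these counts may cover mainly the 2127 bp that Igf2 has to itself. The antisense Igf2os had 0 to 6 counts per library.

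Igf2bp3, an RNA-binding protein of fetal tissue and tumors that binds Igf2 transcripts, had 2 to 20 counts per library. It measured 0.353 to 0.956 CPM in 0ND, 0.691 to 1.87 in 8ND, 0.264 to 0.823 in 0P and 0.281 to 1.96 in 8P. All groups overlapped, and no difference passed (−0.65 ± 0.57, adjusted p = 0.43, in 0P vs 0ND and −0.59 ± 0.48, adjusted p = 0.39, in 8P vs 8ND). Of its exon bases 18.7% lie opposite Malsu1, which had 97 to 449 counts per library.

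The dose comparisons asked what FA changed within each tissue. In 8ND vs 0ND edgeR called 0 of the 9 genes, against 0.0481% of all tested genes, and 4 had an unadjusted p under 0.05, against 9.91%. Those 4 were Igfbp5 (1.39 ± 0.40, adjusted p = 0.19), Igfbp4 (0.75 ± 0.23, adjusted p = 0.23), Igfbp3 (−0.53 ± 0.17, adjusted p = 0.26) and Igf1 (0.89 ± 0.34, adjusted p = 0.36). DESeq2 called 1, Igfbp5 (1.38 ± 0.36, adjusted p = 0.017), against 1.54% of all genes with an adjusted p, and limma-voom 0, against 0.0144%. For Igfbp4 and Igfbp5, in the values above, all 5 libraries of 8ND lay above all 4 of 0ND, 2 of 9 genes against 3.94% of all tested genes. H19 differed by 1.63 ± 0.82 (adjusted p = 0.54), with the highest 8ND value in 8ND 2. A fit chosen after seeing the data left out both 8ND 1 and 8ND 2, the highest 8ND libraries in Igf1 and H19. Its values were 1.26 for Igfbp5, 0.74 for Igfbp4, 0.63 for Igf1 and 0.85 for H19, and 0 passed.

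Within dysplasia (8P vs 0P), 0 of the 9 genes passed in edgeR, DESeq2 or limma-voom, which called 0.0%, 0.0916% and 0.0% of all genes. One had an unadjusted p under 0.05, Igf2r (−0.44 ± 0.18, adjusted p = 0.47), against 10.1%. The difference of H19 was 1.11 ± 0.69 (adjusted p = 0.57) and turned to −0.064 without 8P 2. Those of Igf1 (0.45 ± 0.33), Igfbp5 (0.39 ± 0.39) and Igfbp4 (0.10 ± 0.23) had adjusted p of 0.62 or more, and all 9 genes overlapped between these groups, while 2.25% of all tested genes did not.

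The difference between the dose effects in P and in ND, tested as an interaction, passed for 0 of the 9 genes in edgeR, DESeq2 and limma-voom, which called 0.0%, 0.483% and 0.0% of all genes (DESeq2 gave Igf2bp3 no adjusted p here and in 8P vs 0P). Igf2r alone had an unadjusted p under 0.05 (−0.62 ± 0.26, adjusted p = 0.44), against 10.4% of all tested genes. The values were −0.996 ± 0.55 for Igfbp5 (adjusted p = 0.54) and −0.66 ± 0.33 for Igfbp4 (adjusted p = 0.50). The larger rise of these genes from ND to P on FA-free chow was therefore not shown to differ from that on FA 8 mg/kg.

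**Figure D3:**
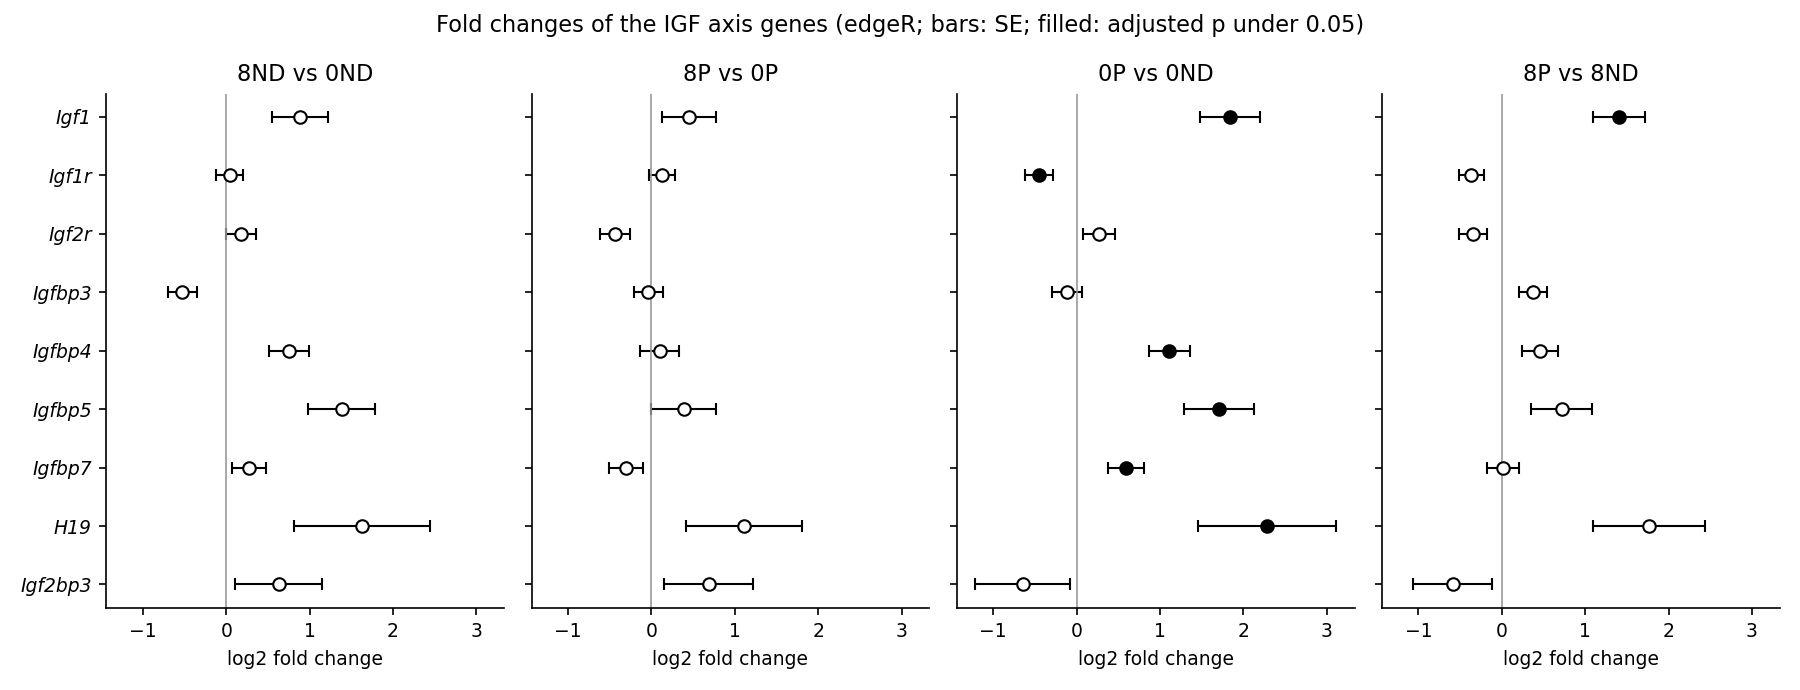
Log2 fold changes (points) with SE (bars) of the 9 tested genes in the 4 comparisons, filled where the adjusted p was under 0.05 in edgeR. Filled points stand in 0P vs 0ND (6 genes) and 8P vs 8ND (Igf1), and none in the dose comparisons.

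Some marker lists of other cells also differed between the groups, in both directions. The summed fibroblast and matrix markers were 1533 to 1753 CPM in 0ND, 1852 to 2193 in 8ND, 2360 to 2926 in 0P and 1491 to 3649 in 8P, so that 0ND lay below 8ND and 0P without overlap. The highest libraries were 8P 5 (3649 CPM) and 8P 2 (3034 CPM), the same that led Igfbp5 and Igfbp4. Of the 14 markers, 0 passed in 8ND vs 0ND, against 0.0481% of all tested genes, with a median log2 fold change of 0.15. Between P and ND, 6 rose and 3 fell in 0P vs 0ND, and 2 rose and 4 fell in 8P vs 8ND. For this and the lists below, 15.9% of all tested genes rose and 15.7% fell in 0P vs 0ND. In 8P vs 8ND the shares were 13.9% and 14.3%. In 8P 3 and 8P 4 the sum (1491 and 1694 CPM) lay within or below the 0ND range, while Igf1 (179 and 144 CPM) was above all ND libraries. Igfbp4 (302 and 299 CPM) and Igfbp5 (719 and 585 CPM) in 8P 3 and 8P 4 were above all 0ND libraries. Both genes lay within the 8ND ranges there (299 to 335 and 473 to 873 CPM), while the marker sums lay below all 8ND libraries. The macrophage and dendritic sum was 311 to 470 CPM in 0ND, 352 to 537 in 0P, 312 to 453 in 8ND and 402 to 689 in 8P, with 8P 2 highest. Of its 12 markers, 2 rose and 0 fell in 0P vs 0ND, and 1 rose and 0 fell in 8P vs 8ND. The smooth muscle and pericyte sum was 1556 to 3514 CPM in 0ND and 754 to 1202 in 0P, and 10 of its 12 markers fell in each P vs ND comparison. Of the 10 B and plasma cell markers 3 fell in 0P vs 0ND and 7 in 8P vs 8ND, with sums of 797 to 1656 CPM in 0ND, 358 to 512 in 0P, 1380 to 2633 in 8ND and 261 to 949.6 in 8P. Of the 6 neutrophil markers tested, 4 rose and 1 fell in each of these comparisons. The endothelium sum was 175 to 260 CPM in 0ND, 182 to 243 in 0P, 182 to 232 in 8ND and 110 to 210 in 8P. Of its 12 markers, 1 rose and 2 fell in 0P vs 0ND, and 0 rose and 3 fell in 8P vs 8ND. For the 9 T and NK cell markers tested, 1 rose and 2 fell, and 1 rose and 1 fell. For the 5 enteric glia and neuron markers tested, 0 rose and 1 fell in each. Of the 12 colon epithelium markers, 1 rose and 6 fell in 0P vs 0ND, and 1 rose and 9 fell in 8P vs 8ND. Their sum overlapped between 0ND (4521 to 5826 CPM) and 0P (3504 to 5029 CPM), but not between 8ND (4014 to 5913 CPM) and 8P (3278 to 3943 CPM). No marker of these lists was at 0 throughout, and their part in the results was not tested.

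**Figure D4:**
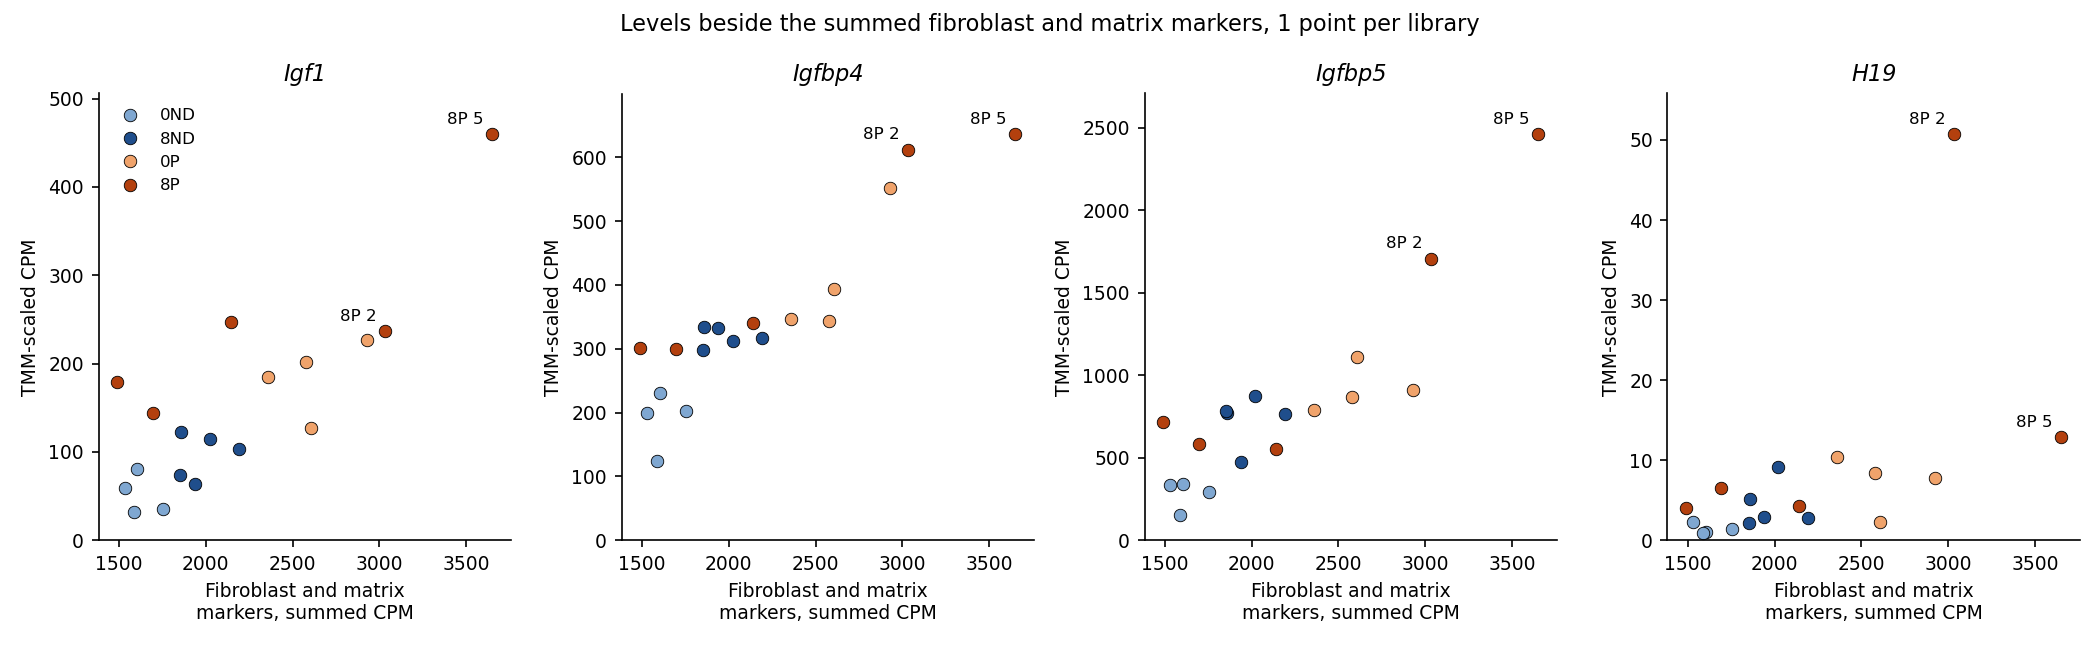
TMM-scaled CPM of Igf1, Igfbp4, Igfbp5 and H19 against the summed CPM of 14 fibroblast and matrix markers, 1 point per library, coloured by group. 8P 5 and 8P 2 lie at the right and top for Igfbp4 and Igfbp5, while 8P 3 and 8P 4 combine marker sums near those of 0ND with Igf1 levels above all ND libraries.

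The other genes of the pathway were taken from a list of 35, of which 30 could be tested. In 0P vs 0ND 9 rose and 10 fell, against 15.9% and 15.7% of all genes, and in 8P vs 8ND 4 rose and 11 fell, against 13.9% and 14.3%. The median log2 fold change was −0.14 and −0.016. In all, 13 passed in both, each in 1 direction. In the dose comparisons edgeR called 0, with 6 and 5 at an unadjusted p under 0.05, against 9.91% and 10.1% of all genes, and DESeq2 called 1 in 8ND vs 0ND (Foxo3) and limma-voom 0.

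Among the remaining binding proteins, Igfbp2, which can bind integrins as well as IGF, fell in P, with log2 fold changes of −1.74 in 0P vs 0ND (adjusted p = 0.0081) and −2.30 in 8P vs 8ND (adjusted p = 5.1e-04). Its levels were low, with means of 2.37 CPM in 0ND, 0.680 in 0P, 3.32 in 8ND and 0.669 in 8P. Igfbp1, a binding protein best known from liver, had 0 to 2 counts in the 0ND libraries and 6 to 30 in 0P, and 0 to 5 in 8ND and 7 to 87 in 8P, and passed in both comparisons (adjusted p = 0.0037 and 0.0036). Igfbp6, which prefers Igf2, fell by 1.93 in 8P vs 8ND (adjusted p = 0.0075) and differed by −0.47 ± 0.52 in 0P vs 0ND (adjusted p = 0.54). It too was low, with means of 1.61 CPM in 0ND, 1.19 in 0P, 1.60 in 8ND and 0.449 in 8P, where the lowest value was 0.

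Of the 6 proteases of the binding proteins and their inhibitors, 5 rose and 1 fell in 0P vs 0ND, against 15.9% and 15.7% of all genes, and 2 rose and 1 fell in 8P vs 8ND, against 13.9% and 14.3%. Htra1, a secreted serine protease that cuts Igfbp5, rose from 17.99 ± 2.85 CPM in 0ND to 82.3 ± 19.1 in 0P (2.20 ± 0.26, adjusted p = 7.7e-06) and from 23.1 ± 4.81 in 8ND to 54.2 ± 17.8 in 8P (1.22 ± 0.23, adjusted p = 6.1e-04). Pappa, which cuts Igfbp4, rose by 0.93 ± 0.34 (adjusted p = 0.044) and 1.09 ± 0.30 (adjusted p = 0.011), while its relative Pappa2, which cuts Igfbp5 and Igfbp3, fell in both (−1.95, adjusted p = 0.0020, and −2.47, adjusted p = 2.3e-04). The stanniocalcins, which inhibit Pappa, rose in 0P, Stc1 by 3.86 ± 0.74 (adjusted p = 7.9e-04) and Stc2 by 0.73 ± 0.22 (adjusted p = 0.014), and measured 0.66 ± 0.59 and 0.17 ± 0.19 in 8P vs 8ND (adjusted p = 0.44 and 0.54).

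Receptors and signaling brakes were mostly lower in P. Insr, the insulin receptor, fell in both comparisons (−0.72, adjusted p = 2.0e-04, and −0.44, adjusted p = 0.0052), as did its orphan relative Insrr (−2.79 and −2.27). Insrr had few counts per library, 14 to 52 in 0ND, 4 to 7 in 0P, 5 to 39 in 8ND and 1 to 11 in 8P. Irs2, an adaptor of Insr and Igf1r, also fell (−0.86, adjusted p = 7.0e-04, and −0.77, adjusted p = 9.3e-04). Phlpp2, a phosphatase that turns Akt off, fell from 120 ± 35.6 to 45.6 ± 4.53 CPM (−1.39 ± 0.18, adjusted p = 1.0e-05) and from 79.7 ± 13.01 to 41.7 ± 5.63 CPM (−0.94 ± 0.16, adjusted p = 2.0e-04). Foxo3, a transcription factor that Akt shuts out of the nucleus, changed by −1.15 and −0.60. Of the 13 genes of PI3K, Akt and their brakes, 3 rose and 5 fell in 0P vs 0ND, against 15.9% and 15.7% of all genes. In 8P vs 8ND 0 rose and 5 fell, against 13.9% and 14.3%. Foxo1, Foxo3, Phlpp1, Phlpp2 and Pik3r1 fell in both comparisons, and Akt1, Akt2 and Pik3r2 rose in 0P vs 0ND.

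Igf2bp2, a paralog of Igf2bp3, fell from 41.4 ± 4.10 CPM in 0ND to 12.97 ± 8.30 in 0P (−1.67 ± 0.43, adjusted p = 0.0061) and from 30.3 ± 11.3 in 8ND to 10.8 ± 4.72 in 8P (−1.49 ± 0.38, adjusted p = 0.0075). Igf2bp1 passed in neither (−0.33 ± 0.87 and 0.35 ± 0.77). Of 6 targets of the let-7 miRNA that are often read with these proteins, only Arid3a rose in 0P vs 0ND (0.84 ± 0.20, adjusted p = 0.0032, edgeR). The share of all tested genes that rose was 15.9%. In 8P vs 8ND 0 of the 6 passed in edgeR with TMM, against 28.2% of all genes. DESeq2, limma-voom and scaling by library totals also called Hmga1 higher in 0P vs 0ND (0.51 ± 0.20, adjusted p = 0.066, in edgeR with TMM). DESeq2 and scaling by library totals called Mycn higher in 8P vs 8ND (1.12 ± 0.43, adjusted p = 0.060, in edgeR with TMM). Hmga2 measured 0.21 ± 0.53 (adjusted p = 0.80) and 0.18 ± 0.49 (adjusted p = 0.83).

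Of 36 imprinted genes and neighbours of the locus, 26 could be tested, and 8 rose and 4 fell in 0P vs 0ND, against 15.9% and 15.7% of all genes. In 8P vs 8ND 5 rose and 5 fell, against 13.9% and 14.3%. The median log2 fold change was 0.031 and 0.044. The 8 that passed in both kept their direction. Of the 2 neighbours of H19 with enough counts, Mrpl23 passed in neither comparison, and Lsp1 fell by 0.45 in 8P vs 8ND (adjusted p = 0.043). The call of Lsp1 held in limma-voom and not in DESeq2 or when scaled by library totals. In the adjoining Kcnq1 domain of chromosome 7, Cdkn1c, an inhibitor of cyclin-dependent kinases, rose from 4.99 ± 1.81 to 37.5 ± 13.9 CPM (2.92 ± 0.42, adjusted p = 5.1e-05) and from 8.62 ± 4.07 to 43.7 ± 17.6 CPM (2.31 ± 0.36, adjusted p = 1.5e-04). Ascl2, a transcription factor of intestinal stem cells, rose by 1.71 ± 0.30 and 1.54 ± 0.27, and Cd81 by 0.82 ± 0.15 and 0.58 ± 0.14.

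Elsewhere in the genome, Plagl1, a zinc finger factor that is known to act on the H19-Igf2 locus, rose from 5.34 ± 0.549 to 58.1 ± 20.6 CPM (3.45 ± 0.55, adjusted p = 1.7e-04) and from 11.6 ± 7.67 to 85.7 ± 33.6 CPM (2.88 ± 0.47, adjusted p = 2.8e-04). Meg3, a maternally expressed noncoding RNA, fell from 54.3 ± 21.9 to 15.5 ± 2.63 CPM (−1.80 ± 0.28, adjusted p = 9.2e-05) and from 40.7 ± 15.7 to 10.1 ± 1.66 CPM (−2.003 ± 0.26, adjusted p = 2.4e-05), as did Rian from the same cluster (−1.45 and −1.501). Slc38a4, an amino acid transporter, rose from 0.892 ± 0.328 to 29.1 ± 19.7 CPM (5.04 ± 0.59, adjusted p = 8.9e-06) and from 4.36 ± 2.67 to 14.5 ± 3.79 CPM (1.73 ± 0.44, adjusted p = 0.0066). Airn, the antisense RNA of Igf2r, fell in both (−0.71, adjusted p = 0.047, and −0.85, adjusted p = 0.011). Its call in 0P vs 0ND held in DESeq2. That call was lost in limma-voom and when scaled by library totals or DESeq2-style size factors. In the dose comparisons edgeR called 0 of the 26, with 3 and 5 at an unadjusted p under 0.05, against 9.91% and 10.1% of all genes, and DESeq2 called 1 (Slc38a4, 8ND vs 0ND) and limma-voom 0. Gene names outside the naming rule, such as Stc1, Pappa, Igfbp2, Akt1 and Lsp1, were chosen after their values were seen.

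**Figure D5:**
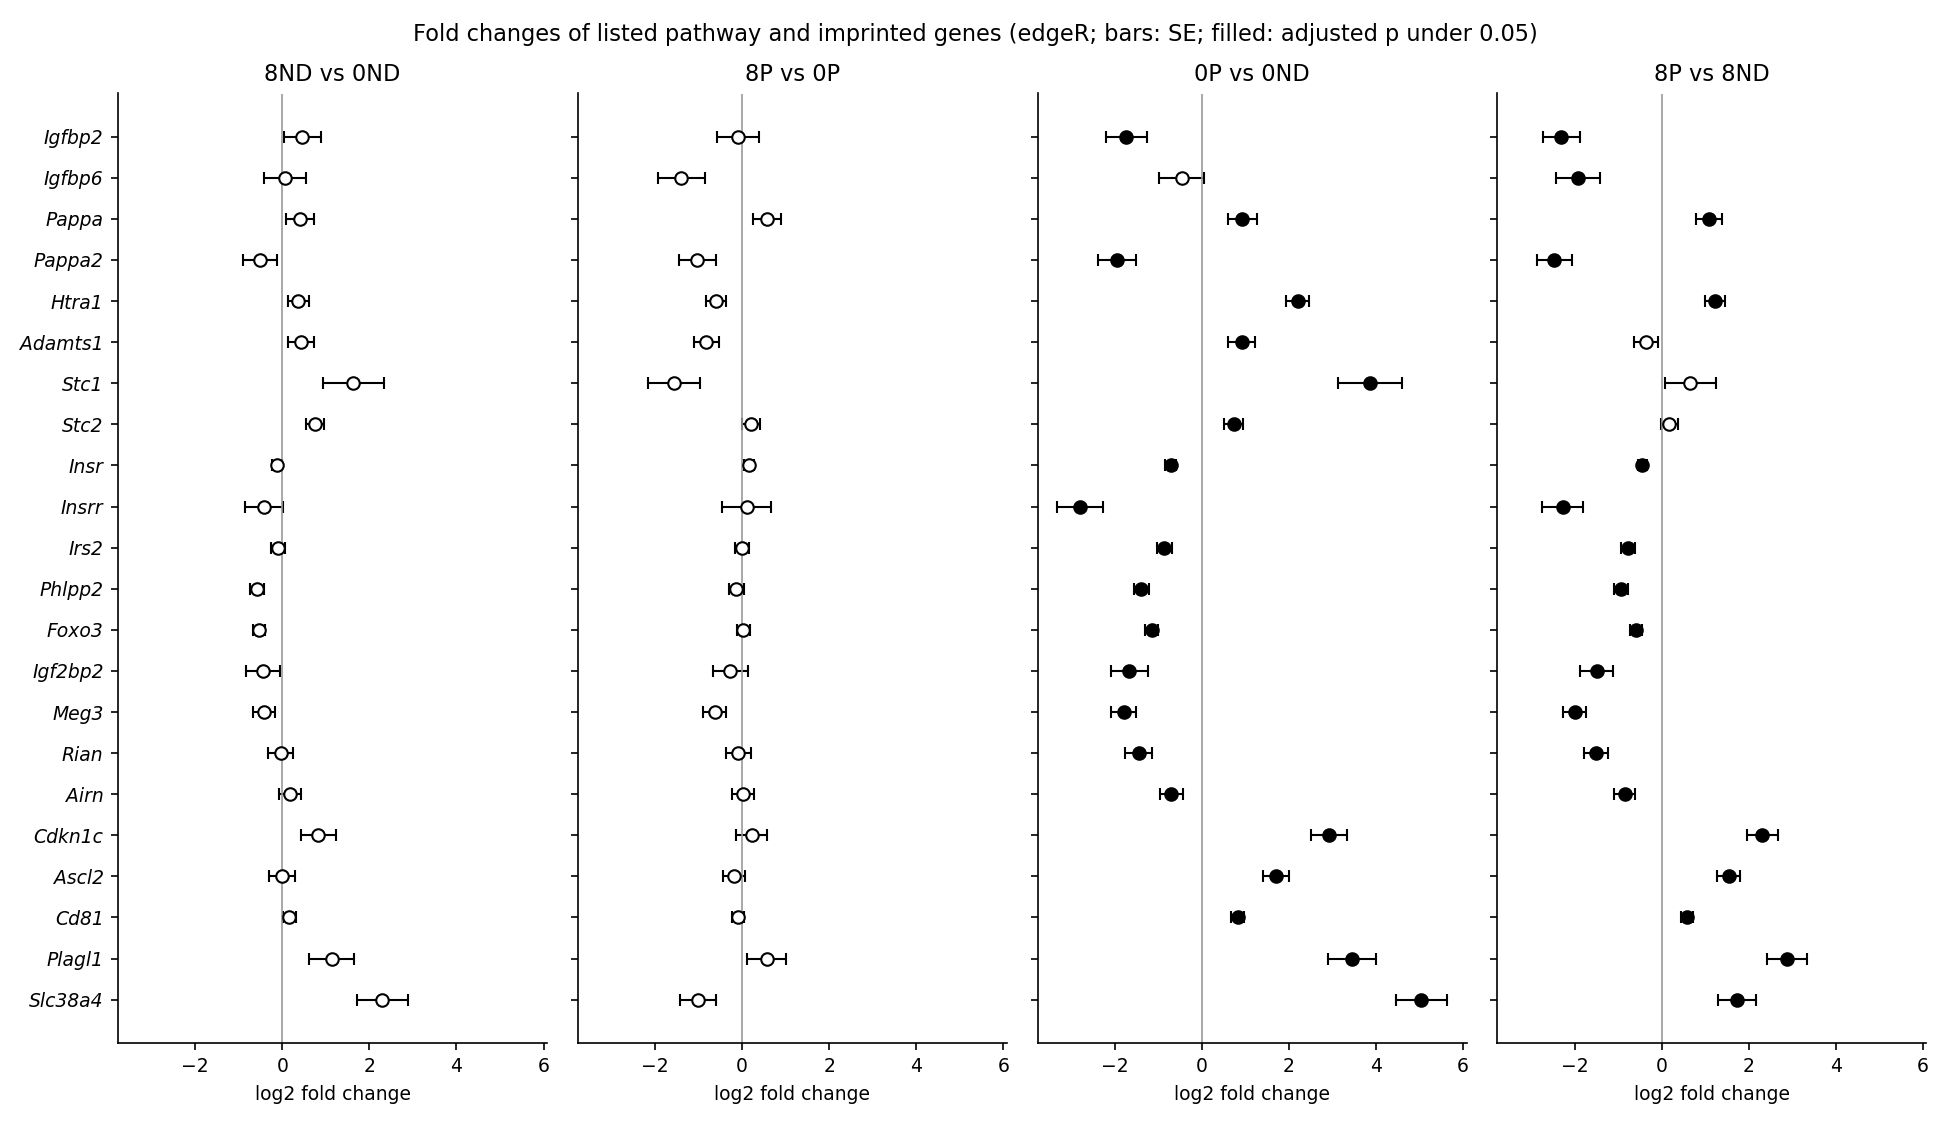
Log2 fold changes (points) with SE (bars) of listed pathway and imprinted genes in the 4 comparisons, filled where the adjusted p was under 0.05 in edgeR. The filled points of 0P vs 0ND and 8P vs 8ND lie on the same side of 0 for each gene filled in both, and the dose comparisons hold none.

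The genes most like H19 across the libraries were Slc41a1 (r = 0.88), Wnk2 (r = 0.85) and Cxcl14 (r = 0.82), by Pearson correlation of log2 CPM after each group mean was removed, over 18 libraries and 11751 genes. Without the 2 libraries farthest from the median in H19, r was 0.78, 0.80 and 0.68. For Igf2bp3 they were Fads3 (0.81), Dna2 (0.80) and Ubox5 (0.80). Leading values picked from so many genes are high by selection, libraries share depth and tissue makeup, and the values are a description.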

How the data were processed

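For 18 libraries the authors deposited unnormalized read counts by gene name. Their reads, from a stranded low-input kit, went through Bowtie (mm10) and then HTSeq; the sources used here name no version, counting mode or strand option for either. The tables held 55453 gene names, of which 54512 occur in GENCODE M21, the source of coordinates and exon lengths (union of exons), and 5 summary lines left out of library sizes. Reads without a unique alignment made up 40.1 to 62.2% and ambiguous reads 0.220 to 0.384% per library. In R 4.3.3, edgeR 4.0.16 (filterByExpr by group, minimum count 10, TMM, robust quasi-likelihood fit of all 18 libraries, a mean per group) tested 20787 genes. Each SE was obtained as |log2 fold change| over √F. Log2 CPM for likeness used a prior count of 2 and genes of at least 5 CPM on average. Marker sums are CPM of total counts on genes. DESeq2 1.42.0, limma 3.58.1 (voom), other scalings, no filter, a replicate block and fits without single libraries were alternatives. The fit was tested on simulated data.

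The genes, lists, tests and naming rule were chosen with earlier results of these data known. The rule named the 10 genes, up to 8 members of each list past the threshold in both P vs ND comparisons, and up to 2 per list with the smallest p in each dose comparison. Of those last, Hmga1, Plagl2, Slc22a18, Dcn and Adamts1 passed in no dose comparison. No molecular identifiers are mentioned for these libraries, so PCR copies are part of the counts, and count limits cover counting error only (3 counts for a count of 0). No protein sequences were used.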

Additional observations from a re-analysis of the deposited data

Results flagged for a closer look

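Among the 40 sets of libraries (10 genes in 4 groups), 2 held a library far from its group by Dixon's test, and chance alone marks about 1 set in 20. In 8P, 8P 2 stood apart in H19 at 50.7 CPM beside 3.98 to 12.9 CPM in the other 8P libraries, a gap of 0.809 of the range. The same library was the highest in the macrophage and dendritic (689 CPM) and neutrophil (88.2 CPM) marker sums. In 8ND, 8ND 3 stood apart in Igfbp5 at 473 CPM beside 769 to 873 CPM, a gap of 0.738 of the range. This library was also the highest in the B and plasma cell sum (2633 CPM). The part of these markers in the results was not tested.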

How the results depend on the processing

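Of 815 alternative values of the 45 gene-by-comparison results, 742 kept their direction and side of the threshold, 32 lost a call, 10 gained one and 31 turned direction, and the cause was not tested. In 0P vs 0ND the 6 calls became 3 with no filter on low counts, and 3 to 5 when 1 library was left out. In 8P vs 8ND the 1 call became 2 when scaled by library totals only (Igfbp3 added), 2 in DESeq2 (H19 added), 2 without both 8ND 1 and 8ND 2 (chosen after seeing the data, H19 added) and 1 to 2 without 1 library. In 8ND vs 0ND the count of 0 became 1 in DESeq2. The labels do not say what a replicate number shares, and the numbers were not treated as pairs: same-number correlations were −0.011 to 0.17 (0ND with 0P, over 0.1 in 3 of 4 pairs, where other numbers reached 0.073) and −0.14 to 0.33 (8ND with 8P, over 0.1 in 2 of 5), and not every library correlated best with its own number. The fit with a replicate block called 0 in 8ND vs 0ND, 0 in 8P vs 0P, 4 in 0P vs 0ND (Igf1r and Igfbp7 lost), 3 in 8P vs 8ND (H19 and Igfbp3 added) and 0 in the interaction. The block also turned Igf1r in 8ND vs 0ND (−0.011), Igfbp4 in 8P vs 0P (−0.043), Igfbp7 in 8P vs 8ND (−0.035) and Igf2bp3 in the interaction (−0.018), limma-voom turned Igfbp7 in 8P vs 8ND (−0.057) and Igf2bp3 in the interaction (−0.16), library totals turned Igfbp3 in 8P vs 0P (0.019), and leaving out both 8ND libraries turned Igfbp7 in 8P vs 8ND (−0.060) and H19 in the interaction (0.25). Without 1 library, values that turned ranged from −0.012 to 0.085 for Igf1r in 8ND vs 0ND, in 8P vs 0P from −0.064 to 1.36 for H19, −0.011 to 0.24 for Igf1r, −0.15 to 0.12 for Igfbp3, −0.076 to 0.28 for Igfbp4 and −0.045 to 0.57 for Igfbp5, from −0.21 to 0.14 for Igfbp7 in 8P vs 8ND, and in the interaction from −0.052 to 0.20 for Igf1r and −0.47 to 0.29 for Igf2bp3. Each turned value had an adjusted p of 0.37 or more. Over all genes, the 10 calls of 8ND vs 0ND became 41 with no filter, 28 with the block, 313 in DESeq2, 3 in limma-voom, 2 to 157 without 1 library and 0 without both 8ND libraries. The 0 calls of 8P vs 0P became 17 and those of the interaction 81 in DESeq2. Depth limits H19, Igf2bp3 and Igf2 most, with as few as 8, 2 and 0 counts in a library.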
